A study of Mus musculus with 12 samples.

Results

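Lungs in which Fgf10 could be switched on by doxycycline were compared with lungs in which signalling through FGFR2b was blocked early, over every gene on the array. The GOF 9 h lungs were Rosa26rtTAtet(O)fgf10 after 9 h of doxycycline, and the LOF 6 h lungs were Rosa26rtTAtet(O)solubleR2b after 6 h of doxycycline, both from C57bl/6J mice, with n = 3 arrays each. Those 6 of the 12 arrays carried the comparison, and the remaining 6, from LOF 9 h lungs and from lungs labelled wild-type and untreated (control), entered the estimate of the spread. The study instead describes its array controls as littermates that carry the transactivator alone, taken 6 h or 9 h after doxycycline was given to the mother. Which description holds for these control arrays is not settled here. Of 62976 array features, 31465 had a gene symbol, and 1 feature was kept for each of 20738 genes, the one with the highest mean over all 12 arrays. A difference is GOF 9 h minus LOF 6 h on the log2 scale ± standard error, and a gene is called when its Benjamini-Hochberg adjusted p over all 20738 genes is below 0.05.

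FGF10 is a growth factor made by the distal mesenchyme of the embryonic lung. It binds FGFR2b, the splice form of FGF receptor 2 found on epithelium, and the signal runs largely through RAS and ERK to the ETS factors ETV4 and ETV5 and to feedback inhibitors of the Sprouty and DUSP families. In the lung bud this signalling keeps the tip cells undifferentiated and drives branching, while cells further from the source turn to the SOX2-positive airway fate. The soluble receptor is the outer part of FGFR2b joined to an antibody heavy chain, which is secreted and holds FGFR2b ligands away from the cell surface.

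Both transgenes depend on a transactivator expressed from the Rosa26 locus, which is active in most cell types, so neither is confined to epithelium or mesenchyme. The transgene and the time on doxycycline both differed between the groups. Lungs labelled with the Fgf10 transgene at 9 h were set against lungs labelled with the soluble receptor at 6 h. Transgene and time therefore cannot be told apart. The methods of the study place the LOF lungs at an early branching stage and do not describe the GOF lungs. Since RNA came from whole lungs, fewer cells of a type and less RNA per cell cannot be told apart.

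Arrays correlated with their own group at a mean r of 0.974 to 0.980, and with the other groups at 0.972 to 0.977. Neither of the transgenes' own genes was called. Fgf10 read 8.12, 8.12 and 7.34 in GOF 9 h lungs and 7.60, 7.62 and 7.77 in LOF 6 h lungs, and the difference was 0.20 ± 0.24 (adjusted p = 0.82). All 10 Fgf10 features lay higher in GOF 9 h, by 0.03 to 0.51, and 1 of them had an unadjusted p below 0.05. Fgfr2 read 6.64, 6.41 and 6.44 in GOF 9 h lungs and 6.70, 7.11 and 6.75 in LOF 6 h lungs, so that GOF 9 h lay below LOF 6 h without overlap. The difference was −0.35 ± 0.15 (adjusted p = 0.41), and the 11 Fgfr2 features ranged from −0.39 to 0.32. Whether these features can read RNA of either transgene was not tested, so they do not check the labels.

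Sex markers were uneven between the groups. Xist, the RNA that coats the inactive X chromosome, read 1.93, 6.21 and 5.53 in GOF 9 h lungs and 2.36, 2.20 and 1.94 in LOF 6 h lungs. The Y-linked gene Eif2s3y read 8.56, 2.65 and 2.54 in GOF 9 h lungs and 3.31, 7.74 and 7.59 in LOF 6 h lungs, so that GOF 9 h arrays 2 and 3 had high Xist and LOF 6 h arrays 2 and 3 had high Eif2s3y, while LOF 6 h array 1 was low in both. Array 1 of the GOF 9 h group also read highest for many genes, as the values below show. Markers of heart muscle moved with the groups as well and are given with the muscle genes.

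Between GOF 9 h and LOF 6 h lungs, 76 genes were called, which is 0.366% of those tested. Of these, 44 were higher (0.212%) and 32 were lower (0.154%) in GOF 9 h, and 64 of the 76 differed by at least 2-fold. Snhg16, a non-coding RNA gene, and the ETS factor Etv5 led the higher side by adjusted p, and the uroplakin Upk3a and the phosphohydrolase gene Hddc3 led the lower side. The groups did not overlap for any of the 76, against 16.7% of all genes without overlap (7.86% with GOF 9 h above and 8.81% below). The median difference over all genes was −0.02. How many genes were called rested on single arrays. Without LOF 6 h array 1 the count was 7, without LOF 6 h array 2 it was 16, and without LOF 6 h array 3 it was 19. Leaving out GOF 9 h array 1, 2 or 3 gave 20, 48 or 44 calls, and leaving out LOF 9 h array 1, 2 or 3 gave 58, 39 or 36. Hddc3, Snhg16 and Upk3a were called both in the fit without LOF 6 h array 1 and in a fit to the 6 compared arrays alone, which called 5 genes, the other two being Cox6a2 and Dera.

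**Figure D1:**
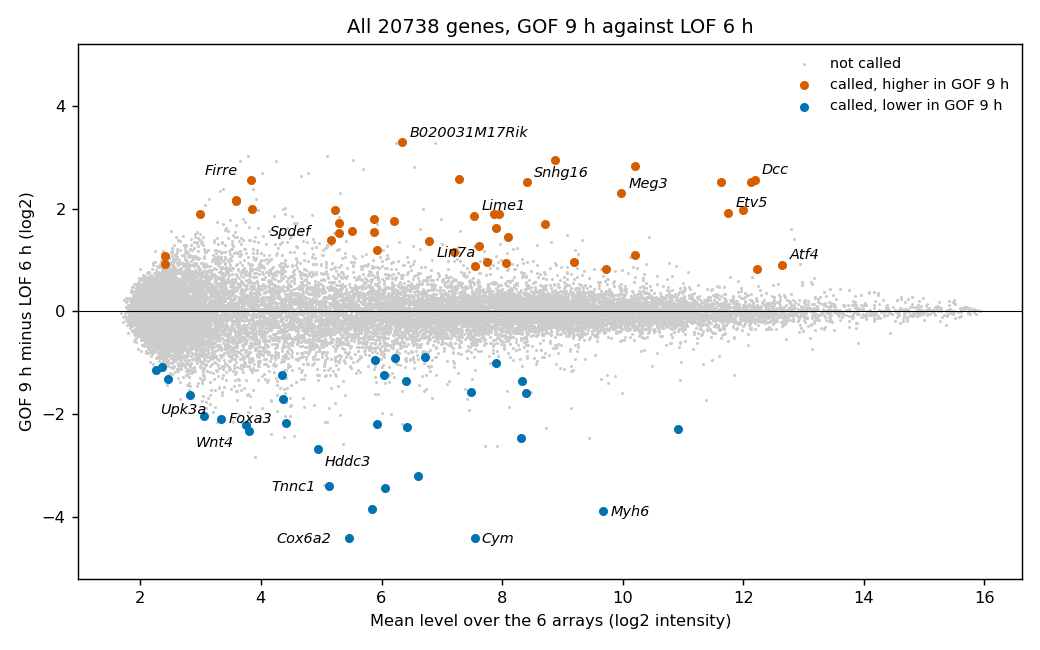
Each point is a gene, with its mean level over the 6 compared arrays (log2 intensity) on the horizontal axis and the difference GOF 9 h minus LOF 6 h (log2) on the vertical axis. Orange points are the 44 genes called higher and blue points the 32 genes called lower in GOF 9 h. Most genes lie within 1 log2 unit of 0, and the calls reach from −4.41 (Cox6a2 and Cym) to 3.29 (B020031M17Rik).

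The control arrays place these genes. For 39 of the 44 genes called higher, the LOF 6 h mean lay further from the control mean than the GOF 9 h mean did, and for 5 it was the GOF 9 h mean (Ankrd23, Cd5l, Plekhh2, Rpusd2 and Slc15a2). For the 32 genes called lower, the LOF 6 h mean was the further one in 23 and the GOF 9 h mean in 9. GOF 9 h against control was not itself called for any of these genes. The LOF 9 h and control arrays were not part of the comparison itself. There, LOF 9 h lay below control for 26 of the 44 genes called higher, against 50% of all genes, and above control for 27 of the 32 genes called lower, also against 50%. LOF 9 h against control was itself called for 5 of the 44 and 2 of the 32, against 0.0723% of all genes. Both comparisons use the same estimate of each gene's spread, so the share over all genes is not an independent background for these calls.

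Etv5, whose product acts downstream of FGF receptors in tip cells, followed Snhg16 in order of adjusted p. It read 12.61, 12.55 and 12.98 in GOF 9 h lungs and 10.65, 10.99 and 10.74 in LOF 6 h lungs. Each GOF 9 h array stood more than 1 log2 unit above every LOF 6 h array, and the difference was 1.92 ± 0.16 (3.79-fold, adjusted p = 0.0024). The control arrays, at 12.58, 12.54 and 12.87, lay among the GOF 9 h values, and the LOF 9 h arrays, at 10.29, 10.40 and 10.21, lay below those of LOF 6 h. Among all called genes Etv5 was 1 of 5 whose call held in each of the 12 fits that left out 1 array.

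Lin7a, a scaffold protein of epithelial polarity, read 7.67, 7.41 and 7.35 in GOF 9 h lungs and 5.84, 6.30 and 6.16 in LOF 6 h lungs (1.38 ± 0.16, adjusted p = 0.0105). Gprc5a, an orphan receptor of lung epithelium induced by retinoic acid, read 9.13, 8.64 and 8.69 in GOF 9 h lungs and 7.19, 7.42 and 7.49 in LOF 6 h lungs (1.45 ± 0.18, adjusted p = 0.016). For both genes the groups stood apart by about a log2 unit, with the control arrays at the GOF 9 h level.

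Slco2a1, which carries prostaglandins into cells, was tight in GOF 9 h lungs at 7.06, 7.07 and 7.12 and wider in LOF 6 h lungs at 4.72, 5.75 and 5.49 (1.76 ± 0.25, adjusted p = 0.023). The tetraspanin Tspan8 read 6.78, 6.51 and 6.65 in GOF 9 h lungs and 4.84, 4.99 and 5.50 in LOF 6 h lungs (1.54 ± 0.22, adjusted p = 0.023). Sp5, a transcription factor that is also a direct target of WNT signalling, read 9.31, 8.29 and 8.55 in GOF 9 h lungs and 7.22, 7.02 and 7.02 in LOF 6 h lungs (1.63 ± 0.24, adjusted p = 0.026). Here GOF 9 h array 1 was the highest array of the series for Sp5, above the control arrays at 8.01, 8.41 and 8.02.

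These 6 genes are the called members of a list of 30 measured genes, which holds part of the FGF10 signature of the study, not the whole of it. Strap, at 9.87, 9.40 and 9.40 in GOF 9 h lungs and 7.99, 7.61 and 7.99 in LOF 6 h lungs, and Gnptab, at 8.32, 8.07 and 8.29 in GOF 9 h lungs and 7.18, 7.17 and 7.46 in LOF 6 h lungs, belong to that signature as well. Both lie outside the list and were called higher (1.70 ± 0.23, adjusted p = 0.023, and 0.96 ± 0.15, adjusted p = 0.032). The other Strap feature, almost as bright at a mean level of 8.50 against 8.54, differed by only 0.20 ± 0.23. The signature was chosen on LOF arrays of this series, LOF 6 h among them, so its direction is not independent evidence. In the comparison at hand 29 of 30 members were higher in GOF 9 h, against 46.8% of all genes. Of these, 27 lay above without overlap, against 7.86% of all genes. The 6 calls stand against 0.212% of all genes called higher. The list's median difference was 1.0, against −0.02 over all genes. The mean level over the 30 members ran from 7.71 to 8.25 in GOF 9 h arrays and from 6.61 to 6.81 in LOF 6 h arrays, while control arrays ran from 7.74 to 7.99. Leaving out any one GOF 9 h or LOF 6 h array left 28 or 29 members higher, with medians between 0.87 and 1.08, although the number called fell to 1 without LOF 6 h array 1.

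Several members of this list with large differences did not pass. Sftpb, a surfactant protein gene of the distal epithelium, read 10.35, 6.72 and 6.55 in GOF 9 h lungs and 4.26, 4.84 and 4.72 in LOF 6 h lungs (3.27 ± 0.83, adjusted p = 0.16). GOF 9 h array 1 alone stood more than 3 log2 units above its own group there, and the control arrays at 6.52, 6.20 and 7.01 matched the other GOF 9 h arrays. Pthlh, a parathyroid hormone-like ligand from lung epithelium, showed the same order, with 8.30, 5.80 and 5.70 in GOF 9 h lungs and 3.37, 4.22 and 3.14 in LOF 6 h lungs (3.02 ± 0.71, adjusted p = 0.12). Bspry (1.99 ± 0.36, adjusted p = 0.053) and Rai14 (0.62 ± 0.11, adjusted p = 0.053) missed the threshold narrowly. Apcdd1, a membrane inhibitor of WNT signalling, was the exception to the list's direction, with 4.23, 4.32 and 4.31 in GOF 9 h lungs and 5.17, 4.83 and 4.78 in LOF 6 h lungs (−0.64 ± 0.16, adjusted p = 0.15).

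**Figure D2:**
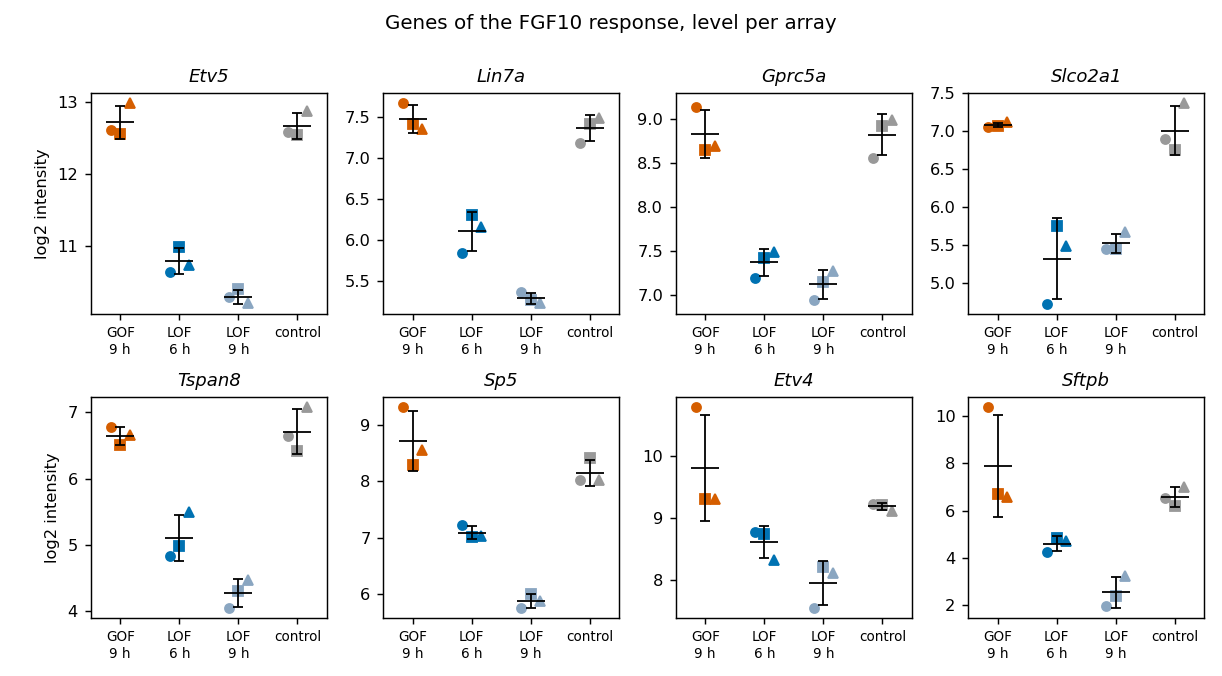
Level per array (log2 intensity, vertical axis) of 8 genes of the FGF10 response in GOF 9 h, LOF 6 h, LOF 9 h and control lungs, with circle, square and triangle for arrays 1, 2 and 3, and the mean ± SD (n = 3) in black. Etv5, Lin7a, Gprc5a, Slco2a1, Tspan8 and Sp5 were called and keep GOF 9 h near control, while in Etv4 and Sftpb GOF 9 h array 1 stands above the other arrays of its group.

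Since Etv5 encodes an ETS factor, the bases before the start of the 6 called genes of this list were read for GGAAG on both strands. GGAAG is a longer form of the GGAA core that ETS factors bind, and other forms of that core were not counted. RefSeq windows (GRCm38.p6) of the 250 bases before a start were found for 5 of the 6 genes, with 7 starts in all. At least 1 match lay in 5 of the 7 windows and in 4 of the 5 genes, whereas 64.1% of all 32851 windows of this length hold one, so the share was near the background. The windows of the 3 genes with a single start are shown because these genes moved together, with matches to GGAAG or its complement CTTCC in capitals. Slco2a1 lies at chr9:103008237-103008486 on the + strand, Sp5 at chr2:70474673-70474922 on the + strand and Tspan8 at chr10:115817034-115817283 on the + strand.
Slco2a1: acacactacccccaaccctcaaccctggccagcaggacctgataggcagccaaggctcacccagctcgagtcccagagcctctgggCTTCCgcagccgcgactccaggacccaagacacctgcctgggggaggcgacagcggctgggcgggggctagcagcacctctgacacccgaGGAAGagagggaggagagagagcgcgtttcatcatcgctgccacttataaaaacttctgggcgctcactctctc
Sp5: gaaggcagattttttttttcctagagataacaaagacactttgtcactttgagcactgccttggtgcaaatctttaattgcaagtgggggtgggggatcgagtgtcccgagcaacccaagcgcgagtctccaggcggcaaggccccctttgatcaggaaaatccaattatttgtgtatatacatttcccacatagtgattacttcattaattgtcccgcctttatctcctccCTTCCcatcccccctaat
Tspan8: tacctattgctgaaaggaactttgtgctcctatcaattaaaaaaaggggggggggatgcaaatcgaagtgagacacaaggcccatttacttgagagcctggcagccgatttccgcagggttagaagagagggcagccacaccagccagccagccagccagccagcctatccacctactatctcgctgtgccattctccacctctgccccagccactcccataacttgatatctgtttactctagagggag
The Slco2a1 window holds 2 matches and the Sp5 window 1. The Tspan8 window holds neither GGAAG nor CTTCC, though it does hold the shorter GGAA.

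Among the PEA3 family only Etv5 was called. Etv4 read 10.78, 9.31 and 9.30 in GOF 9 h lungs and 8.77, 8.74 and 8.32 in LOF 6 h lungs (1.18 ± 0.36, adjusted p = 0.23). On this feature the GOF 9 h arrays lay above all LOF 6 h arrays, with array 1 well above its group. The second Etv4 feature differed by 0.67 ± 0.44, and there the groups overlapped. Etv1 read 9.61, 9.46 and 9.39 in GOF 9 h lungs and 9.52, 10.05 and 10.09 in LOF 6 h lungs, and the groups overlapped (−0.40 ± 0.20, adjusted p = 0.49).

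Of 20 measured feedback inhibitors of FGF and ERK signalling, 9 lay higher and 11 lay lower in GOF 9 h (median −0.12). Dusp8 alone was called, against 0.366% of all genes. Dusp8, a phosphatase that acts on stress-activated MAP kinases, read 3.40, 3.59 and 3.57 in GOF 9 h lungs and 5.45, 5.44 and 4.76 in LOF 6 h lungs (−1.70 ± 0.24, adjusted p = 0.023). Its second feature differed by −0.44 ± 0.61. The Sprouty gene Spry2, an inhibitor of receptor tyrosine kinase signalling, read 5.30, 4.75 and 3.74 in GOF 9 h lungs and 3.38, 2.24 and 2.80 in LOF 6 h lungs (1.79 ± 0.58, adjusted p = 0.26). Dusp4 (1.44 ± 0.38, adjusted p = 0.17) and Spry1 (0.54 ± 0.16, adjusted p = 0.23) also kept the groups apart without being called. Dusp6, the ERK phosphatase most often used as a readout of FGF signalling, differed by 0.32 ± 0.19 (adjusted p = 0.58), and Spry4 by −0.42 ± 0.28 (adjusted p = 0.63).

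None of 22 measured FGF ligands was called, against 0.366% of all genes. The ligand with the smallest p was Fgf1, which read 7.47, 5.84 and 6.06 in GOF 9 h lungs and 4.79, 2.77 and 4.91 in LOF 6 h lungs (2.30 ± 0.59, adjusted p = 0.16). A list of 19 measured FGF receptors, co-receptors and related genes held 1 called gene, against 0.366% of all genes. That gene encodes neither a receptor nor a co-receptor. Fgfbp1, a secreted carrier that frees FGFs from the matrix, read 2.56, 2.46 and 2.95 in GOF 9 h lungs and 4.57, 4.52 and 5.50 in LOF 6 h lungs (−2.21 ± 0.35, adjusted p = 0.033). The GOF 9 h levels of this gene lay near or below 2.98, the median of every array over all features.

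In the distal tip list 13 of 16 markers were higher in GOF 9 h, against 46.8% of all genes, with a median of 0.84. Etv5 and Lin7a were called, against 0.212% of all genes called higher. Both belong to the FGF10 signature, as do Id2, Sftpc and Shh. That signature was chosen on LOF arrays of this series, so the direction of these genes is not independent evidence. Id2, an inhibitor of differentiation that marks tip progenitors, read 11.97, 10.63 and 10.90 in GOF 9 h lungs and 9.88, 9.44 and 9.84 in LOF 6 h lungs (1.45 ± 0.30, adjusted p = 0.089). Sox9, the tip transcription factor, differed by 1.27 ± 0.43 (adjusted p = 0.29), and each of its 10 features lay higher in GOF 9 h, by 0.65 to 1.27. Nkx2-1, which specifies lung epithelium, differed by 0.77 ± 0.19 (adjusted p = 0.14), with all 10 features higher by 0.43 to 0.99. The surfactant gene Sftpc read 9.97, 11.10 and 10.88 in GOF 9 h lungs and 9.46, 9.63 and 9.66 in LOF 6 h lungs (1.06 ± 0.32, adjusted p = 0.23), and here GOF 9 h array 1 was the lowest of its group. Shh, the ligand from epithelium to mesenchyme, differed by 0.29 ± 0.17 (adjusted p = 0.59).

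General epithelial genes, such as those of adhesion and keratins, did not separate the groups. Of 21 measured, 9 were higher and 12 lower, none was called, and the median difference was −0.08. Mean levels over that list ran from 7.71 to 7.82 in GOF 9 h arrays and from 7.69 to 7.94 in LOF 6 h arrays.

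Among 18 proximal airway genes 7 lay higher and 11 lower in GOF 9 h (median −0.28, or −0.08 without LOF 6 h array 1). The 2 that were called, against 0.366% of all genes, went opposite ways. Spdef, an ETS factor of secretory cells, read 6.01, 5.80 and 5.80 in GOF 9 h lungs and 4.34, 4.90 and 4.18 in LOF 6 h lungs (1.40 ± 0.20, adjusted p = 0.023). Foxa3, a forkhead factor of the endoderm, read 3.41, 3.14 and 3.47 in GOF 9 h lungs and 5.46, 5.99 and 5.08 in LOF 6 h lungs (−2.17 ± 0.30, 4.51-fold lower, adjusted p = 0.023). Sox2, which marks the airway fate, read 5.54, 6.39 and 6.79 in GOF 9 h lungs and 7.40, 7.30 and 7.26 in LOF 6 h lungs. All GOF 9 h arrays lay below all LOF 6 h arrays for Sox2, and the difference of −1.08 ± 0.30 did not pass (adjusted p = 0.19).

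Among genes of the foregut and its derivatives, Cym fell as far as any gene called. Cym, the stomach protease chymosin, read 3.97, 6.16 and 5.89 in GOF 9 h lungs and 10.44, 9.71 and 9.10 in LOF 6 h lungs (−4.41 ± 0.59, 21.2-fold lower, adjusted p = 0.023). A second Cym feature gave 5.43, 6.14 and 6.17 in GOF 9 h lungs and 9.19, 8.51 and 8.21 in LOF 6 h lungs, a difference of −2.72 ± 0.34. The control arrays, at 7.98, 6.60 and 7.97, lay above the GOF 9 h and below the LOF 6 h values, and the LOF 9 h arrays were highest at 11.58, 12.12 and 12.11. In the whole list 14 of 21 measured genes were lower in GOF 9 h, with a median of −0.30. Cym and Foxa3 were called, against 0.154% of all genes called lower. The pancreatic lipase gene Pnliprp1 differed by −1.64 ± 0.36 and was not called (adjusted p = 0.10).

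Upk3a, a membrane protein of the urothelial plaque, read 2.12, 2.52 and 2.24 in GOF 9 h lungs and 4.42, 4.46 and 4.29 in LOF 6 h lungs (−2.10 ± 0.20, 4.28-fold lower, adjusted p = 0.0044). GOF 9 h levels were below the array median, as were those of control at 2.22, 2.96 and 2.54, while LOF 9 h read 5.38, 5.06 and 5.03. The other 4 measured uroplakins were not called, with differences between −0.35 and 0.58. Tmprss2, a serine protease of airway epithelium, read 5.10, 5.47 and 5.66 in GOF 9 h lungs and 6.23, 6.44 and 6.40 in LOF 6 h lungs (−0.95 ± 0.16, adjusted p = 0.046), and its call was lost in each of the 12 fits without 1 array.

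Among 14 WNT ligands 9 were lower and 5 higher in GOF 9 h, with a median of −0.55, which was −0.28 without LOF 6 h array 1. Wnt4, a ligand with roles in kidney and lung growth, read 2.11, 2.80 and 3.04 in GOF 9 h lungs and 4.66, 5.11 and 5.14 in LOF 6 h lungs (−2.32 ± 0.37, adjusted p = 0.032). Wnt6 read 5.29, 5.94 and 5.08 in GOF 9 h lungs and 7.05, 6.70 and 6.66 in LOF 6 h lungs and missed the threshold (−1.37 ± 0.25, adjusted p = 0.057). Canonical WNT targets and effectors split evenly, with 12 of 24 higher and a median of −0.01. Sp5 alone was called among them, against 0.366% of all genes. Lists of the Hedgehog, BMP and TGF-beta, Notch and retinoic acid pathways held no called gene, and their medians were −0.08, 0.05, −0.18 and −0.26. Without GOF 9 h array 1 the Notch and retinoic acid medians were −0.11 and −0.15.

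Several non-coding RNAs read lowest in LOF 6 h lungs. Snhg16 carries small nucleolar RNAs in its introns, and no gene had a lower adjusted p. It read 9.64, 9.73 and 9.61 in GOF 9 h lungs and 7.19, 7.24 and 7.02 in LOF 6 h lungs (2.51 ± 0.13, 5.69-fold, adjusted p = 4.0e-05). The LOF 9 h arrays at 9.09, 9.10 and 9.37 and the control arrays at 9.45, 9.59 and 9.66 lay close to GOF 9 h, about 2 log2 units above LOF 6 h. Zfas1, another snoRNA host gene, read 10.82, 10.77 and 10.65 in GOF 9 h lungs and 9.75, 9.50 and 9.69 in LOF 6 h lungs (1.10 ± 0.14, adjusted p = 0.016).

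Meg3 and Mirg are maternally expressed RNAs of the same imprinted cluster on chromosome 12. Meg3 read 11.98, 10.36 and 11.02 in GOF 9 h lungs and 9.01, 8.78 and 8.69 in LOF 6 h lungs (2.29 ± 0.36, 4.91-fold, adjusted p = 0.032). Its other 2 features also lay higher in GOF 9 h, by 1.81 ± 0.37 and 0.94 ± 0.32. Mirg read 9.49, 8.39 and 8.81 in GOF 9 h lungs and 6.67, 7.56 and 6.78 in LOF 6 h lungs (1.90 ± 0.32, adjusted p = 0.041). In both RNAs GOF 9 h array 1 was the highest and array 2 the lowest of their group. Dlk1, the paternally expressed gene of that cluster, differed by 0.31 ± 0.16 (adjusted p = 0.50).

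Of 21 snoRNA host genes and long non-coding RNAs in the list 10 were measured, and of these 9 were higher in GOF 9 h, 8 of them without overlap, and 4 were called, with a median of 1.84. Over all genes, 46.8% were higher, 7.86% lay above without overlap and 0.212% were called higher. Besides Snhg16, Zfas1 and Meg3 the called member was Firre, an X-linked RNA of nuclear organisation, at 5.08, 5.22 and 5.06 in GOF 9 h lungs and 2.36, 1.97 and 3.36 in LOF 6 h lungs (2.55 ± 0.28, adjusted p = 0.0105). The other 2 Firre features differed by 0.54 ± 0.59 and −0.13 ± 0.25. Mir17hg, the host of the miR-17 cluster, read 8.19, 5.50 and 7.33 in GOF 9 h lungs and 4.51, 2.96 and 4.69 in LOF 6 h lungs without being called (2.95 ± 0.63, adjusted p = 0.094), and neither was Snhg3 (1.39 ± 0.29, adjusted p = 0.089). Gas5, also a snoRNA host, differed by −0.21 ± 0.31 on its brightest feature (adjusted p = 0.87) but by 1.38 when its 3 features were averaged.

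**Figure D3:**
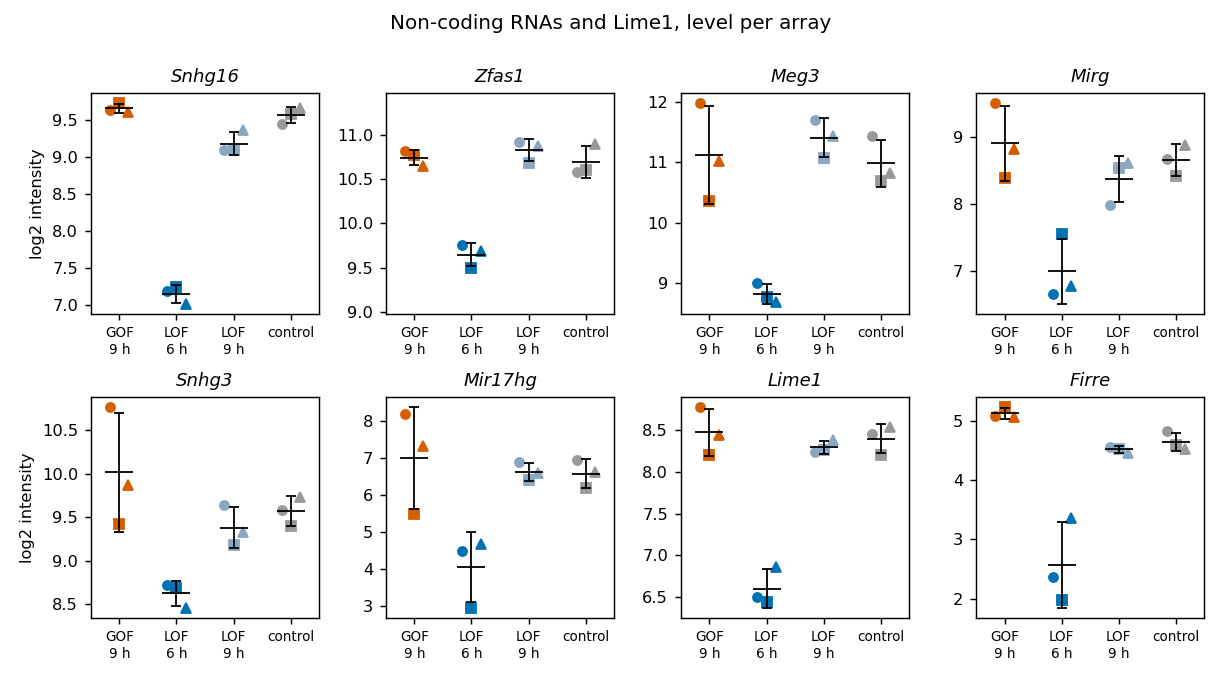
Level per array (log2 intensity, vertical axis) of 7 non-coding RNAs and Lime1 in GOF 9 h, LOF 6 h, LOF 9 h and control lungs, with circle, square and triangle for arrays 1, 2 and 3, and the mean ± SD (n = 3) in black. In each panel the 3 LOF 6 h arrays lie below all GOF 9 h arrays, and LOF 9 h lies near control.

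Lime1, a membrane adaptor of tyrosine kinases best known from lymphocytes, followed the same course. It read 8.77, 8.20 and 8.43 in GOF 9 h lungs and 6.50, 6.44 and 6.87 in LOF 6 h lungs (1.86 ± 0.18, adjusted p = 0.0044), with control at 8.45, 8.19 and 8.53. A second Lime1 feature differed by 1.82 ± 0.22. Plekhg4 read 5.25, 4.39 and 4.39 in GOF 9 h lungs and 2.93, 2.67 and 1.93 in LOF 6 h lungs (2.17 ± 0.37, adjusted p = 0.045), and the predicted gene Gm3696 read 4.68, 4.95 and 4.93 in GOF 9 h lungs and 2.84, 2.37 and 3.38 in LOF 6 h lungs (1.99 ± 0.29, adjusted p = 0.027). Both were high in LOF 9 h and control lungs.

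Atf4, the transcription factor of the integrated stress response, read 13.31, 12.91 and 13.08 in GOF 9 h lungs and 12.22, 12.18 and 12.17 in LOF 6 h lungs (0.91 ± 0.13, adjusted p = 0.023). Its second feature lay higher by 0.93 ± 0.27. The 16 other measured genes of the ATF4 list were not called, and their list split into 9 higher and 8 lower with Atf4 counted, at a median of 0.02. Egfl7, a factor secreted by endothelial cells, read 12.67, 12.51 and 12.74 in GOF 9 h lungs and 11.83, 11.85 and 11.77 in LOF 6 h lungs (0.82 ± 0.13, adjusted p = 0.032), whereas 12 of 16 endothelial genes were lower and none besides Egfl7 was called. Ribosome biogenesis genes lay slightly higher in 18 of 20, with a median of 0.23 and none called.

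Another group of called genes rested on a single bright feature each. The feature kept for Dcc, a netrin receptor of neurons, read 14.39, 13.30 and 12.70 in GOF 9 h lungs and 10.81, 10.98 and 10.93 in LOF 6 h lungs (2.56 ± 0.36, adjusted p = 0.023). The other 2 Dcc features stayed between 1.59 and 3.15 on all 6 arrays, below or near the array median. Rhox8, an X-linked homeobox gene of the gonads, read 14.15, 13.29 and 12.72 in GOF 9 h lungs and 10.85, 10.91 and 10.85 in LOF 6 h lungs (2.51 ± 0.31, adjusted p = 0.016), while its other feature differed by −0.54 ± 0.52. These levels were among the highest of the called genes.

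Gab3, Pigr, Ermn, BC005624 and Akap7 had the same form. Their kept features differed by 2.84 ± 0.40, 1.98 ± 0.33, 2.94 ± 0.51, 2.51 ± 0.38 and 2.58 ± 0.45 (adjusted p between 0.023 and 0.045), and their next features differed by −0.05 ± 0.40, 0.19 ± 0.32, −1.28 ± 0.69, −0.17 ± 0.14 and −0.07 ± 0.16. B020031M17Rik, with 1 feature, had the largest rise of all called genes, at 8.89, 8.04 and 7.03 in GOF 9 h lungs and 4.46, 5.02 and 4.62 in LOF 6 h lungs (3.29 ± 0.39, adjusted p = 0.016). In all 8 of these genes GOF 9 h array 1 was the highest and array 3 the lowest of the group, an order that 13 of the 44 genes called higher shared and none of the 32 called lower. What RNA the bright features read was not tested. Over all called genes with more than 1 feature, the next brightest feature had an unadjusted p below 0.05 in the same direction in 5 of 17 genes called higher and in 3 of 8 called lower.

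**Figure D4:**
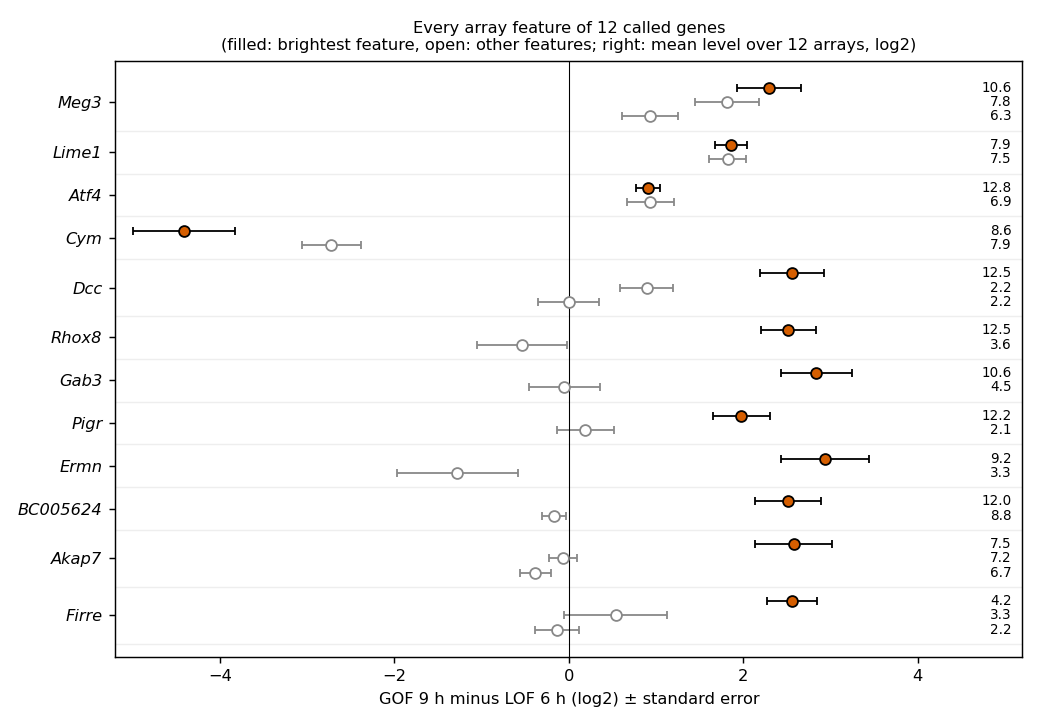
Difference GOF 9 h minus LOF 6 h (log2, horizontal axis) ± standard error for every feature of 12 called genes, with the brightest feature filled and the others open, and the mean level over 12 arrays (log2) at the right. The features of Meg3, Lime1, Atf4 and Cym lie on the same side of 0, while for Dcc, Rhox8, Gab3, Pigr, Ermn, BC005624, Akap7 and Firre only the brightest feature lies near 2 or above.

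Heart muscle genes were lower in GOF 9 h lungs. Myh6, the atrial myosin heavy chain, read 7.41, 6.86 and 8.94 in GOF 9 h lungs and 12.02, 11.52 and 11.31 in LOF 6 h lungs (−3.88 ± 0.67, 14.7-fold lower, adjusted p = 0.045), and its second feature differed by −0.66. Tnnc1, cardiac troponin C, read 3.22, 3.29 and 3.81 in GOF 9 h lungs and 7.45, 6.50 and 6.53 in LOF 6 h lungs (−3.39 ± 0.42, adjusted p = 0.016). On the kept feature of each gene the groups were separated by more than 2 log2 units, with LOF 6 h array 1 the highest array of the series.

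Mybpc3 (−3.44 ± 0.53, adjusted p = 0.032) and Myl4 (−2.29 ± 0.39, adjusted p = 0.041), both of the sarcomere, were the other called members of a list of 19 measured heart genes. In that list 15 were lower in GOF 9 h, 11 of them without overlap, and the median was −1.69. Over all genes, 8.81% lay below without overlap and 0.154% were called lower. Of its defining markers, Tnnt2 (−2.61 ± 0.58, adjusted p = 0.10), Myl7 (−2.62 ± 0.49, adjusted p = 0.063) and Actc1 (−1.72 ± 0.39, adjusted p = 0.11) lay low without being called, and 8 members overlapped between the groups. The mean level over the list ran from 4.82 to 5.23 in GOF 9 h arrays, from 6.24 to 6.90 in LOF 6 h arrays and from 5.15 to 6.08 in control arrays. Without GOF 9 h array 1 no heart gene was called, nor without LOF 6 h array 1, while the medians were −1.33 and −1.44.

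Among called genes outside the list, Cox6a2, Csrp3 and Ankrd23 are known from striated muscle, and their kept features did not all move the same way. Cox6a2, the heart and muscle form of a cytochrome oxidase subunit, read 3.55, 2.94 and 3.26 in GOF 9 h lungs and 8.28, 7.37 and 7.33 in LOF 6 h lungs (−4.41 ± 0.72, adjusted p = 0.035). Csrp3, the muscle LIM protein, read 3.54, 3.55 and 4.67 in GOF 9 h lungs and 8.42, 7.51 and 7.37 in LOF 6 h lungs (−3.84 ± 0.59, adjusted p = 0.032). Ankrd23, a muscle ankyrin repeat protein, was instead higher, at 4.75, 4.52 and 4.69 in GOF 9 h lungs and 2.0, 2.95 and 2.58 in LOF 6 h lungs (2.14 ± 0.33, adjusted p = 0.032). The second Ankrd23 feature differed by −0.04 ± 0.45. With the mean of the heart list as a covariate, limma called 0 of 20738 genes, and 1417 had an unadjusted p below 0.05. That mean did not overlap between the groups, at 4.82 to 5.23 in GOF 9 h and 6.24 to 6.90 in LOF 6 h arrays. The covariate thus moves with the comparison, so the lost calls cannot show what the heart genes account for. In that fit 27 of 30 signature genes were higher in GOF 9 h, with a median of 0.73. The snoRNA hosts and long non-coding RNAs were higher in 10 of 10, with a median of 1.88. For the same reason these counts cannot show what the heart genes account for either. The part of the heart list in the results was not tested.

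Markers of several other cell types lay lower in GOF 9 h too, and no member of the lists in the next sentence was called. All 14 macrophage genes were lower (median −0.56), as were 12 of 13 genes of neural crest and neurons (median −0.83), 10 of 11 smooth muscle genes (median −0.64), 10 of 12 skeletal muscle genes (median −0.55) and 9 of 11 erythroid genes (median −0.30). Cartilage leaned the other way, with 10 of 15 genes higher (median 0.26). Liver genes were split, with 6 of 12 higher (median −0.08), and 5 of 11 mesothelial genes were higher (median −0.22), none of these called. Lung mesenchyme had 12 of 19 genes lower (median −0.07) and none called. Endothelium had 12 of 16 lower (median −0.13), with Egfl7 called higher. With 1 GOF 9 h or LOF 6 h array left out, the cartilage median ranged from 0.04 (without GOF 9 h array 3) to 0.41 (without GOF 9 h array 2) and the mesothelial one from −0.43 (without GOF 9 h array 2) to −0.02 (without GOF 9 h array 1). The macrophage receptor Csf1r read 9.68, 9.64 and 9.67 in GOF 9 h lungs and 10.19, 10.18 and 10.34 in LOF 6 h lungs (−0.57 ± 0.11, adjusted p = 0.074). Ret, the receptor of enteric and lung neurons, read 3.06, 3.35 and 4.16 in GOF 9 h lungs and 4.68, 5.54 and 5.66 in LOF 6 h lungs (−1.77 ± 0.32, adjusted p = 0.057). For smooth muscle, GOF 9 h array 1 read lowest, with a list mean of 8.09 against 8.90 and 9.08 on the other GOF 9 h arrays and 9.14 to 9.31 on the LOF 6 h arrays, and without that array the median was −0.23. The erythroid median was −0.14 without LOF 6 h array 2, −0.17 without GOF 9 h array 2 and −0.53 without LOF 6 h array 3, and it was 0.01, with 6 of 11 genes higher, with the Xist level as a covariate. Their part in the differences of other genes was not tested.

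**Figure D5:**
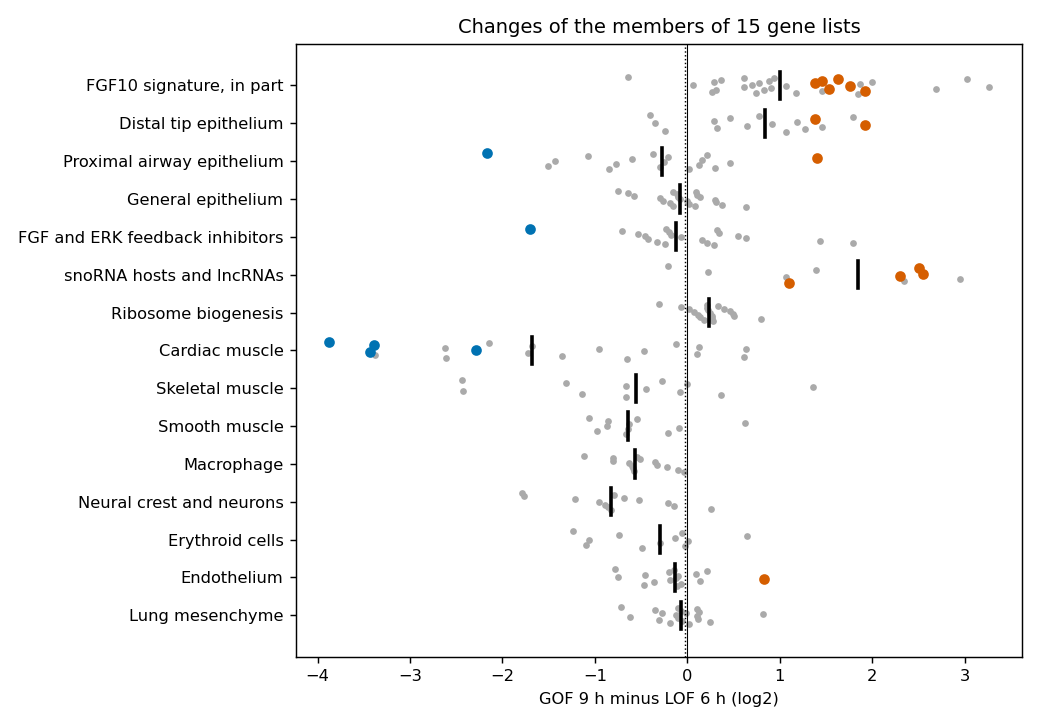
Difference GOF 9 h minus LOF 6 h (log2, horizontal axis) of every measured member of 15 gene lists, with called genes in orange (higher) and blue (lower), other members in grey, the list median as a black bar and the median of all genes as a dotted line. The medians of the 30 FGF10 signature genes (1.0) and the snoRNA hosts and long non-coding RNAs (1.84) lie to the right, and that of heart muscle (−1.69) lies furthest to the left.

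Some of the strongest falls belonged to none of these groups. Hddc3, which encodes a metal-dependent phosphohydrolase, read 3.22, 3.77 and 3.81 in GOF 9 h lungs and 6.40, 6.22 and 6.23 in LOF 6 h lungs (−2.69 ± 0.27, adjusted p = 0.0052). Here the GOF 9 h mean was the one further from control, which read 5.18, 5.68 and 6.00. Hddc3 was not called in GOF 9 h against control in the same fit (−2.02 ± 0.27, adjusted p = 0.18). Dera, an aldolase of deoxyribose breakdown, read 5.06, 4.94 and 5.05 in GOF 9 h lungs and 8.17, 8.43 and 8.03 in LOF 6 h lungs (−3.19 ± 0.53, adjusted p = 0.038), and its control arrays spread from 5.40 to 8.19. Plac9a (−2.46 ± 0.39) and the neurotrophin receptor gene Ntrk3 (−1.24 ± 0.16) likewise had control levels nearer LOF 6 h. Neither was called in GOF 9 h against control (adjusted p = 0.44 for each). The next brightest Ntrk3 feature differed by −0.35 ± 0.36 between GOF 9 h and LOF 6 h.

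On the lower side Lnx2, Hs3st6 and Tgfa fell by 2.18, 2.24 and 2.04 on the log2 scale. Tgfa, a ligand of the EGF receptor, has 10 features, none of which averaged above 2.93 over the arrays, and only the kept one passed an unadjusted p of 0.05. The remaining called falls were Gm9839, AI661453, Mtus2, Pknox2, Nedd9, Vmn1r118, Cyp1b1, Cphx1, Itgax, Cdc42ep2, Rab6b and Lrrc49, by 0.89 to 1.63. Among the rises, Plekhh2 read 4.19, 3.75 and 3.88 in GOF 9 h lungs and 2.10, 1.90 and 2.14 in LOF 6 h lungs (1.89 ± 0.26, adjusted p = 0.023). With control at 2.32, 1.50 and 1.96, the GOF 9 h mean was again the one further from control. Plekhh2 was not called in GOF 9 h against control (2.02 ± 0.26, adjusted p = 0.18). Noxo1, an organiser of NADPH oxidase, was also called (1.97 ± 0.32). The other called rises, by 0.81 to 1.90, were Cmtm8, Slc4a3, Rpusd2, Parp6, Ifrd1, Cd5l, Vsig2, Olfr1372-ps1, Zc3h7a, Mamdc4, Fnbp4, Slc15a2, Macc1 and Ankrd16. Of the called genes, 7 of 44 rises and 8 of 32 falls had at least 1 group mean below the array median of 2.98.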

How the data were processed

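Total RNA of whole lungs was labelled with Cy3 and hybridised, 1 sample per array, on 12 single-colour Agilent mouse arrays, 3 for each of 4 groups. The deposited values are log2 intensities that the authors background-corrected with NormExp (offset 1) and quantile-normalised, per the study's methods (Mapix, limma 3.30.13, R 3.3.2). The methods describe a T7 and an SPIA amplification chosen by RNA amount, while the labels name a single kit, so which array had which is not given in the sources used here. Quantile normalisation gives every array the same distribution (median 2.98), which hides a shift of most genes in one direction.

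Features were named through the platform annotation, updated by accession (29050), symbol (2061) or synonym (349) to RefSeq, with 5 named by the platform alone, and 31511 had no name here. For each gene the feature with the highest mean over 12 arrays was kept. limma 3.58.1 (R 4.3.3) fitted the 4 group means on all 12 arrays with eBayes, two-sided, and Benjamini-Hochberg adjustment ran over 20738 genes. The script was tested on simulated data. Replicates are separate samples in the labels, with no animal named, so p-values measure the spread between these samples. With 3 arrays a group, their number limits the precision.

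The members and the 45 gene lists were chosen with earlier results of these data known. Genes named were up to 15 called genes in each direction with the largest changes, called and up to 3 top-ranked members of each list, and a fixed set of FGF response and sex-linked genes. The other called genes, and Bspry, Rai14, Pthlh, Mir17hg, Snhg3, Mirg, Gas5, Dlk1, Tnnt2, Myl7 and Actc1 where that rule did not name them, were chosen after their values were seen. Alternatives were other normalisations, feature rules, filters, variance models, covariates, a replicate block and leaving out each array. Promoter windows came from RefSeq (GRCm38.p6).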

Additional observations from a re-analysis of the deposited data

Results flagged for a closer look

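Of the 31511 array features without a gene symbol, which the comparison of genes leaves out, 69 were called between GOF 9 h and LOF 6 h lungs (limma, Benjamini-Hochberg over these features), or 0.219%. They stood out because 66 of the 69 were higher and 3 lower in GOF 9 h. The median difference was 2.53 on the log2 scale for the 66 and −2.06 for the 3, against 0.00 over all features without a symbol. All 66 lay below control in LOF 6 h lungs (median −1.87), and 62 lay above control in GOF 9 h lungs (median 0.67). Over the 66 features the median level was 10.94, 9.99 and 9.63 in GOF 9 h arrays and 8.10, 7.99 and 7.94 in LOF 6 h arrays, with control arrays at 9.60, 9.71 and 9.61. GOF 9 h array 1 was the highest of its group for 61 of them. What these features read was not tested.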

How the results depend on the processing

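The count of called genes, 76 as reported, ranged from 7 to 64 when 1 array was left out, and was lowest without LOF 6 h array 1. By limma it was 5 with only the 6 compared arrays (1999 at an unadjusted p below 0.05), 126 after dropping the dimmest 25% of genes, 223 after dropping all below the middle level, and 331 with a trended, robust variance. A plain two-sample statistic on the 6 arrays called 0 (1963 unadjusted), and limma with the heart list as a covariate called 0 (1417 unadjusted). That covariate and the Xist level were chosen after seeing the data, and the heart list mean itself did not overlap between the compared groups. With the Xist level as a covariate limma called 54 genes, 25 higher and 29 lower, and 35 of them were among the 76. With the Y-linked level it called 90, and 68 of them were among the 76. Features without a symbol gave 146 calls with a trended, robust variance. The cause of these shifts was not tested. Signs turned under the heart covariate for Fgf10 (−0.62), Gas5 (0.86), Myl7 (0.021) and Tnnt2 (0.38), under the Xist covariate for Eif2s3y (1.90), and for Gas5 with features averaged (1.38). Gas5 ranged from −0.41 to 0.10 when 1 array was left out, and turned without GOF 9 h array 2. Without members held by another list, the median of the snoRNA hosts and long non-coding RNAs was 1.39. Same-numbered GOF 9 h and LOF 6 h arrays deviated together with correlations of 0.084, 0.059 and 0.0077, against −0.076 to 0.022 for other-numbered arrays. These values cannot show whether the numbers pair the samples. The replicate block gave 39 calls, 24 higher and 15 lower.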
